A study of Mus musculus with 24 samples.

Results

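The change in gene expression between 12 and 24 h of culture was examined in reticulocytes of a mutant mouse, by setting the 5 arrays of mutant cells at 24 h against the 5 arrays of mutant cells at 12 h. These are 10 of the 24 arrays of the study, chosen by the genotype and time in their titles, and they were normalized together without the arrays of fresh cells. All mice were adult males of the C57BL/6J strain. Blood rich in reticulocytes was kept outside the body, and total RNA was amplified, labelled with biotin and hybridized to Illumina mouse bead arrays. The labels call the genotypes wild type (wt) and mutant (mut) and do not name the mutated gene, so no targeted gene could be checked. The design text calls the samples of a group biological replicates. An authors' key writes 15 h for the arrays that the labels place at 12 h, and the labels' time is used. Where the wild-type change over the same interval is given, it comes from 6 arrays, 3 at each time.

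A reticulocyte is a young red cell that has lost its nucleus and finishes its maturation with the RNA it already holds. During this time it degrades its ribosomes and mitochondria, through ubiquitin and the proteasome and through autophagy, remodels its membrane skeleton and completes hemoglobin. Levels on an array are relative to the other transcripts of the same sample, so a higher level at 24 h need not be a larger amount per cell.

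The promoters of 3 genes that rose are printed because each stands for a group described further on: Urod for heme synthesis, Trim10 for ubiquitin enzymes and Rhag for the red cell surface. Each is a 300-base RefSeq window on GRCm38.p6 that runs from before the annotated gene start into the gene, written 5′ to 3′ on the gene's strand. Capitals mark the letters AGATAA, the core that GATA factors bind, and CACCC, the box that Klf factors bind, on either strand (TTATCT and GGGTG). Urod lies at chr4:116994364-116994663 on the minus strand, Trim10 at chr17:36869324-36869623 on the plus strand and Rhag at chr17:40810899-40811198 on the plus strand.
Urod: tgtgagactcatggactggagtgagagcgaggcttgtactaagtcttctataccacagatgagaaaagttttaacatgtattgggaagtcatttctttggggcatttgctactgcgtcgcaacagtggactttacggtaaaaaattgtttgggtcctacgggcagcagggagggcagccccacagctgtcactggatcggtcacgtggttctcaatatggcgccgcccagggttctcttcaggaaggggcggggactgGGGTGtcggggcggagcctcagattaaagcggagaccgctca
Trim10: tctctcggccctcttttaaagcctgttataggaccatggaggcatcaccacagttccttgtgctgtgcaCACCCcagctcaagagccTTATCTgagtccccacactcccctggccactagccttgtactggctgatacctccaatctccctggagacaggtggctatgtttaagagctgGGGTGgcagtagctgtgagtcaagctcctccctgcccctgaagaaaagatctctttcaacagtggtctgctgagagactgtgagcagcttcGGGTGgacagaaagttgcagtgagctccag
Rhag: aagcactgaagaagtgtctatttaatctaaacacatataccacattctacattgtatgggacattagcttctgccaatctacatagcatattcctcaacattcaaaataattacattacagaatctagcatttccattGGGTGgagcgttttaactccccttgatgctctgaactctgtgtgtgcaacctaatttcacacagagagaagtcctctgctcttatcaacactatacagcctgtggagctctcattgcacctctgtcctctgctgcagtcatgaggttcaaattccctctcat
Trim10 held 1 AGATAA and 3 CACCC matches, while Urod and Rhag each held 0 AGATAA and 1 CACCC. Among 32851 promoter windows of 27025 genes, 11.2% held AGATAA and 57.5% held CACCC. Of the 15 largest rises described below, 12 genes matched RefSeq windows, and 11.8% of their 17 windows held AGATAA and 64.7% held CACCC. Of the 15 largest falls, 13 genes matched, and 0% and 60.0% of their 15 windows held these letters. These matches describe the printed letters and are not binding sites.

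Between 10.2 and 28.8% of the 25697 probes were above background on each array, at a detection p below 0.01. At 12 h the share was 20.9% ± 5.91 (SD, n = 5), and at 24 h it was 14.5% ± 3.13 (SD, n = 5). It was lower at 24 h in 5 of 5 pairs of arrays with the same number (exact sign-change p of 0.0625, the smallest possible with 5 pairs). The mean difference was 6.45 percentage points, with a two-sided exact permutation p of 0.0635 that ignores the pairs (the smallest possible is 0.00794). Array 1 at 12 h stood apart from the other 12 h arrays: 12.97% of its probes were detected, against 18.7 to 28.8% on the other 12 h arrays, and without it the difference in the share was -8.44 points with an exact p of 0.0159. On the first principal component, which held 74.3% of the variance, it lay at -3.89, between the other 12 h arrays (-35.5 to -21.3) and the 24 h arrays (9.96 to 36.0). The reticulocyte label was checked against red cell genes: 10 of 15 erythroid markers on the array were detected on all 10 arrays, and Alas2 and Hba-a1 were at the top of the scale, whereas the erythropoietin receptor Epor was detected on no array.

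Among 4433 genes whose best probe was detected on at least 3 of the 10 arrays, 2471 (55.7%) passed an adjusted p of 0.05 in limma, 938 (21.2%) higher and 1533 (34.6%) lower at 24 h. The values of both groups of 5 arrays did not overlap for 33% of genes, 14.1% higher and 18.9% lower. More than 2-fold differences were found for 332 genes that rose and 271 that fell. The median difference over all genes was -0.18 on the log2 scale, against which the lists below are read. Of the genes called, 383 were on no 24 h array above background and 69 on no 12 h array. The share called was 37.5% after centring each array on its median, 42.5% on the authors' processed values and 42.8% with the share of detected probes as a covariate, and 47.0 to 65.7% without single arrays. The split between rises and falls moved with the scaling: 38.0% of calls were rises under the quantile normalization used here, 22.5% after median centring, which put the median of all genes at -0.53, and 71.5% on the authors' values, which put it at 0.03. The authors' values follow each array's raw intensities along a line that was steeper at 24 h for every array number. The part of these slopes in the split was not tested. Among the 1673 genes detected on all 10 arrays 53.0% of 1034 calls were rises. Without array 1 at 12 h, 2913 genes were called. Counts for the gene lists come from the fit without the array number as a block, and where the block or another scaling moved them much, both are given. They are read against the 21.2% and 34.6% of all genes, and the lists were chosen with earlier results of these data known. The lists of translation factors, autophagy, mitophagy, lysosome, cell cycle and monocyte genes had shares of rises and falls that each lay within 10 percentage points of those over all genes, and their counts are not results about these lists.

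**Figure D1:**
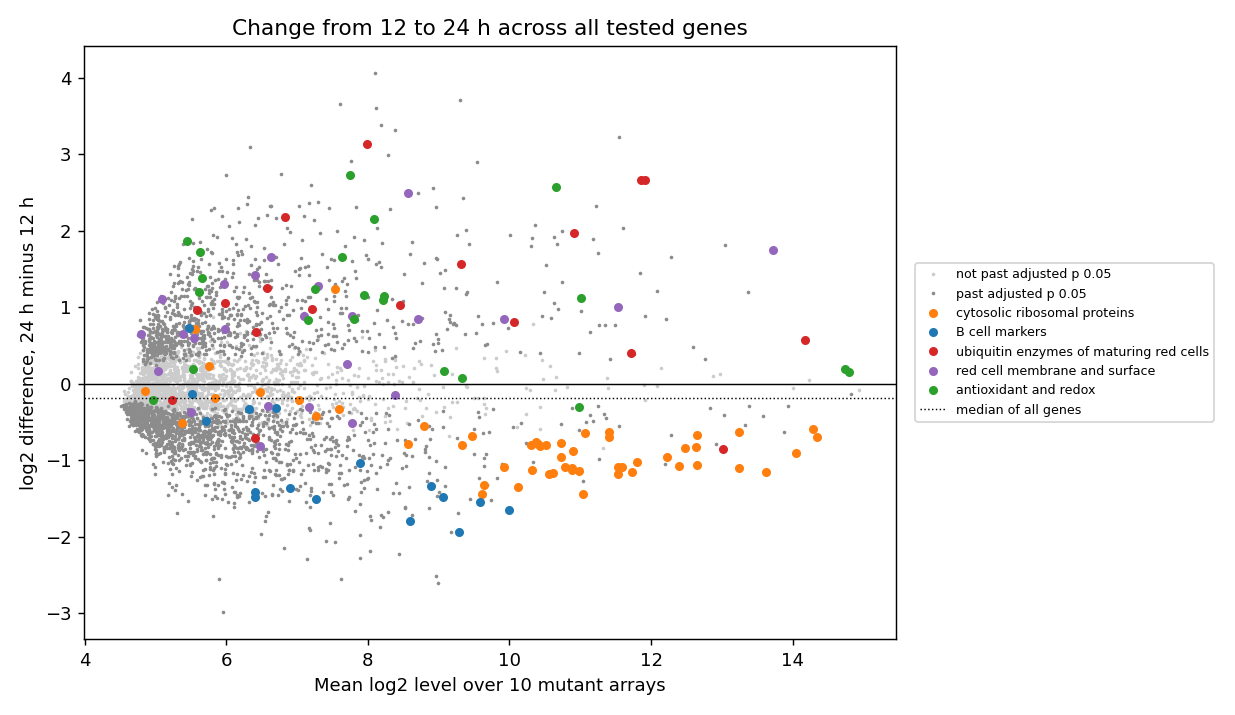
Difference between 24 and 12 h (vertical axis, log2) against the mean level over the 10 mutant arrays (horizontal axis, log2) for 4433 genes, 1 point per gene; dark grey genes passed an adjusted p of 0.05 in limma, and 5 gene lists are coloured. Ubiquitin, membrane and antioxidant genes lie mostly above 0, with medians of 1.003, 0.78 and 1.14, and B cell markers below it, as do ribosomal proteins, which lie above 0 (median 0.34) on the authors' processed values.

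The largest rises ran up to 16.7-fold and included genes of detoxification, protein folding, heme synthesis and amino acid supply. The 15 genes were taken as those with the largest difference among genes that passed the test, did not overlap between the groups and were detected on every array of at least 1 group. Mgst3 read 7.21, 6.22, 5.70, 5.19 and 5.99 on 12 h arrays 1 to 5 and 10.59, 10.33, 9.99, 9.56 and 10.18 on 24 h arrays 1 to 5. Every 24 h array was above every 12 h array, and array 1 was the highest of both groups. This microsomal glutathione transferase rose by 4.07 ± 0.31 (SE, n = 5 and 5; limma adjusted p = 2.36e-07). Dnajb2 read 8.52, 7.59, 7.24, 6.87 and 7.04 on 12 h arrays 1 to 5 and 11.26, 11.18, 11.25, 10.90 and 11.22 on 24 h arrays 1 to 5. Its groups lay more than 2 log2 units apart throughout. Dnajb2, a J-domain co-chaperone that binds ubiquitin, rose by 3.71 ± 0.25 (SE, n = 5 and 5; limma adjusted p = 1e-07), and Dnaja4, another J-domain co-chaperone that was detected on 3 of 5 arrays at 12 h and on 5 of 5 at 24 h, by 3.10 ± 0.14 (SE, n = 5 and 5; limma adjusted p = 3.43e-09). Dusp1 read 5.47, 5.72, 5.81, 5.98 and 5.88 on 12 h arrays 1 to 5 and 8.45, 8.98, 9.92, 10.70 and 9.13 on 24 h arrays 1 to 5. The 12 h arrays were close together and the 24 h arrays spread over more than 2 log2 units, with array 4 the highest. Dusp1, a phosphatase of MAP kinases, rose by 3.66 ± 0.33 (SE, n = 5 and 5; limma adjusted p = 1.17e-06). Pnp, a purine nucleoside phosphorylase, rose by 3.38 ± 0.29 (SE, n = 5 and 5; limma adjusted p = 9.29e-07). Snrnp25, a protein of the minor spliceosome, rose by 3.33 ± 0.22 (SE, n = 5 and 5; limma adjusted p = 1e-07). Snx15, a sorting nexin of endosomes, and Pex19, a carrier of peroxisomal membrane proteins, differed by 3.60 and 2.75, both past the test. Fam214b rose by 2.99. Aldh1a1 read 4.65, 4.57, 4.59, 4.53 and 4.81 on 12 h arrays 1 to 5 and 7.44, 7.37, 7.19, 7.15 and 7.63 on 24 h arrays 1 to 5. At 12 h the probe was not well above background on any array, so the change is given as at least 5.56-fold (adjusted p = 7.42e-09 in limma). Aldh1a1 makes retinoic acid from retinaldehyde, and its near copy Aldh1a7 may share the probe's signal.

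**Figure D2:**
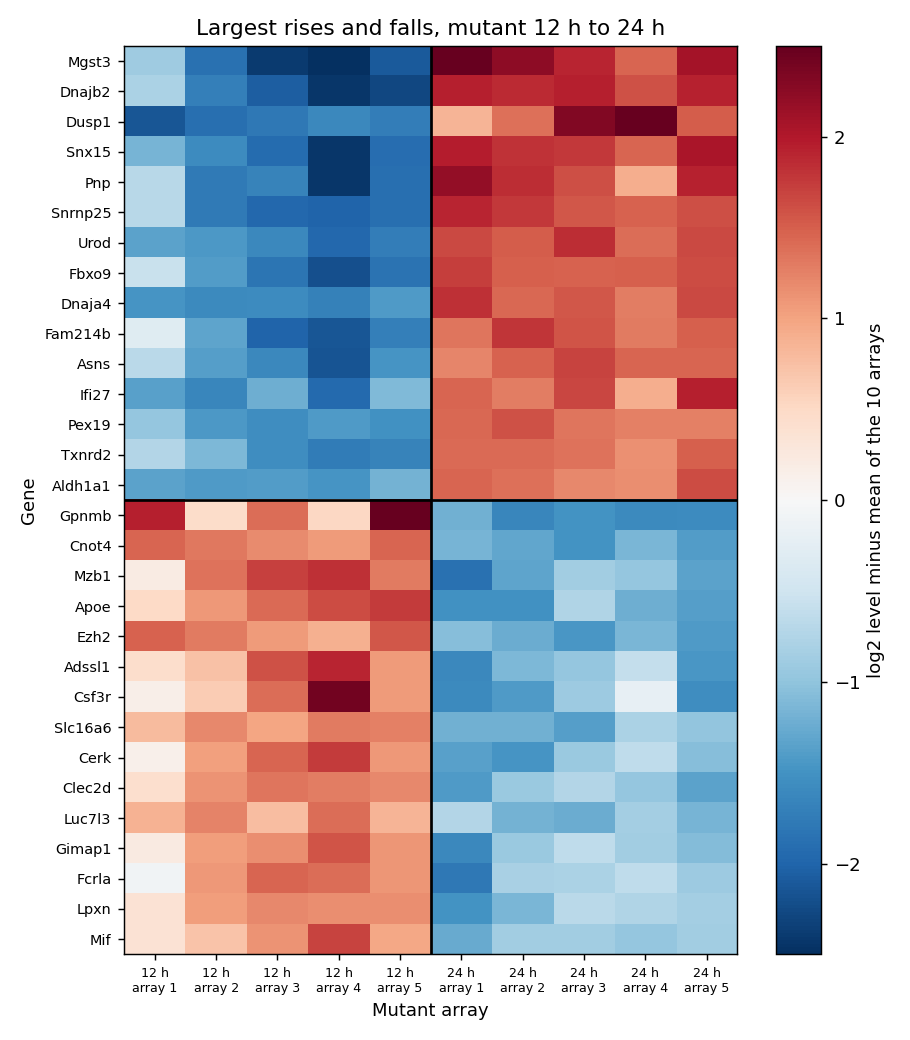
The 15 largest rises (upper block) and the 15 largest falls (lower block) on each of the 10 mutant arrays, 1 row per gene and 1 column per array, coloured by the log2 level minus the gene's mean over the 10 arrays. The columns of 12 and 24 h take opposite colours, except for Fcrla on array 1 at 12 h (7.79, the lowest of the 12 h arrays), and that array is paler than the other 12 h arrays in many rows.

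Most of the listed enzymes that attach ubiquitin rose, in a list chosen with earlier results of these data known. Cnot4, a ubiquitin ligase described below, fell. Of 25 genes of this list on the array 18 were tested, and 15 (83.3%) rose and 2 (11.1%) fell, against 21.2% and 34.6% of all genes. The median difference was 1.003 (-0.18 over all genes). Both counts were 15 and 2 without array 1 at 12 h, and the median was 0.78 after median centring and 1.59 on the authors' values. Ube2o read 10.71, 10.75, 10.56, 10.38 and 10.19 on 12 h arrays 1 to 5 and 13.06, 13.16, 13.16, 13.40 and 13.16 on 24 h arrays 1 to 5. Each 24 h array was more than 2 log2 units above each 12 h array. Ube2o, an enzyme that in reticulocytes marks ribosomal proteins for destruction, rose by 2.67 ± 0.12 (SE, n = 5 and 5; limma adjusted p = 2.94e-09). Trim10 read 11.35, 10.51, 10.73, 9.82 and 10.52 on 12 h arrays 1 to 5 and 13.24, 13.03, 13.46, 13.10 and 13.40 on 24 h arrays 1 to 5. Array 1 was again the highest of the 12 h arrays, still below all 24 h arrays. Trim10, a RING-finger protein of late erythroid cells whose promoter holds the AGATAA shown above, rose by 2.66 ± 0.21 (SE, n = 5 and 5; limma adjusted p = 3.18e-07), and its other probe differed by 2.88. The F-box protein Fbxo9 rose by 3.13 ± 0.25 (SE, n = 5 and 5; limma adjusted p = 3.69e-07), and its other probe by 2.01. Ranbp10 and the scaffold of cullin ligases Cul4a rose by 1.97 and 2.18, and the conjugating enzyme Ube2e3 by 1.05 ± 0.24 (SE, n = 5 and 5; limma adjusted p = 0.00263). The other probes of Cul4a differed by 1.41 and 0.77. Ube2l6, the conjugating enzyme for the ubiquitin-like protein Isg15, fell by 0.85 on the log2 scale, but on the authors' values it stood 0.49 higher at 24 h with no call.

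Genes of heme synthesis rose more often than they fell, with Urod far ahead. Among 17 tested genes 10 (58.8%) rose and 3 (17.6%) fell, against 21.2% and 34.6% of all genes, with a median of 0.55. These were 15 and 1 with a median of 1.11 on the authors' values, and 6 and 1 with a median of 0.24 with the share of detected probes as a covariate. Urod read 10.22, 10.12, 9.93, 9.60 and 9.83 on 12 h arrays 1 to 5 and 13.20, 13.06, 13.40, 12.95 and 13.20 on 24 h arrays 1 to 5. The lowest 24 h array was more than 2 log2 units above the highest 12 h array. Urod, the decarboxylase of uroporphyrinogen, rose by 3.22 ± 0.13 (SE, n = 5 and 5; limma adjusted p = 1.42e-09), which is 9.33-fold. The mitochondrial glutaredoxin Glrx5 rose by 1.22 ± 0.07 (SE, n = 5 and 5; limma adjusted p = 4.72e-08) and the iron-sulfur assembly protein Isca1 by 0.89 ± 0.09 (SE, n = 5 and 5; limma adjusted p = 2.7e-06). Uros, the synthase that comes just before Urod, rose by 0.96, and Cpox, which was on no 12 h array above background, was at least 1.27-fold higher. Alas1, the housekeeping form of the first enzyme, fell by 0.90. Its erythroid form Alas2 lay at 14.85 to 14.91 at 12 h and at 14.73 to 14.80 at 24 h, among the brightest probes. Quantile normalization sets the value of each rank, so a small difference there is bound to the ranks. The difference in Alas2 was -0.13 here and 1.19 on the authors' values. The same limit holds for Hba-a1, an alpha globin (14.98 on all 12 h arrays), for the ferritin heavy chain Fth1, which differed by 0.19, and for Bnip3l. In the globin list of 5 tested genes 1 rose and 1 fell, with a median of -0.08, against 4 and 0 with a median of 1.09 on the authors' values (0 lower at an unadjusted p below 0.05 in limma) and 2 and 2 with the array number as a block. The one that rose here was the embryonic Hbb-bh1, which was below background on all 12 h arrays and was at least 2.67-fold higher at 24 h (adjusted p = 2.46e-06 in limma).

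Among 10 tested genes of iron handling 4 (40.0%) rose and 2 (20.0%) fell, against 21.2% and 34.6% of all genes. Their median was 0.08, and on the authors' values 6 rose and 2 fell with a median of 0.49. Ncoa4 read 6.87, 6.14, 5.61, 5.12 and 5.62 on 12 h arrays 1 to 5 and 8.54, 8.36, 7.98, 7.82 and 8.26 on 24 h arrays 1 to 5. Both groups were spread, array 1 was the highest in each, and they did not overlap. Ncoa4, the receptor that carries ferritin to the lysosome, rose by 2.32 ± 0.27 (SE, n = 5 and 5; limma adjusted p = 1.31e-05). Blvrb, a biliverdin reductase, rose by 1.89 ± 0.16 (SE, n = 5 and 5; limma adjusted p = 7.52e-07). Tfrc, the transferrin receptor that reticulocytes shed as they mature, read 8.56 to 11.85 at 12 h, highest on array 1, and 10.41 to 11.02 at 24 h. It did not pass the test at 0.79 ± 0.42 (SE, n = 5 and 5; limma adjusted p = 0.126), and without array 1 at 12 h it did, at 1.25 with an adjusted p of 5.04e-04 in limma. With the array number as a block it passed as well, with an adjusted p of 0.00826.

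Genes of the red cell membrane and surface were higher at 24 h. Of 32 on the array 24 were tested, and 15 (62.5%) rose and 1 (4.17%) fell, against 21.2% and 34.6% of all genes. The median difference was 0.78. Without array 1 at 12 h 18 rose and 2 fell, and with the array number as a block 16 rose and 5 fell. The median was 0.45 after median centring, 0.63 on the authors' values and 0.51 with the share of detected probes as a covariate. Their summed signal was 9969 to 16689 intensity units at 12 h and 32922 to 35221 at 24 h, and most of the difference was the bright Slc4a1: without it the sums were 4014 to 7041 and 8732 to 9602, which still did not overlap. Slc4a1 read 13.24, 12.95, 12.68, 12.54 and 12.79 on 12 h arrays 1 to 5 and 14.56, 14.56, 14.65, 14.65 and 14.56 on 24 h arrays 1 to 5. The 24 h arrays stood far above every 12 h array, and their closeness to each other is bound to the values that quantile normalization gives to the top ranks. Slc4a1, the anion exchanger band 3, rose by 1.75 ± 0.10 (SE, n = 5 and 5; limma adjusted p = 3.06e-08). Mpp1, a palmitoylated scaffold of the membrane skeleton, rose by 2.49 ± 0.22 (SE, n = 5 and 5; limma adjusted p = 1.01e-06). Rhag read 7.08, 6.14, 5.44, 4.82 and 5.56 on 12 h arrays 1 to 5 and 7.69, 7.81, 7.19, 7.18 and 7.46 on 24 h arrays 1 to 5. Array 1 at 12 h came close to the 24 h arrays without reaching them. Rhag, the Rh-associated glycoprotein, rose by 1.66 ± 0.33 (SE, n = 5 and 5; limma adjusted p = 0.000868), and its other probes differed by 1.83 and 1.65. Ank1, the ankyrin that ties band 3 to spectrin, rose by 1.42 ± 0.23 (SE, n = 5 and 5; limma adjusted p = 0.00021). Xk, a membrane protein that pairs with Kell, was on no 12 h array above background and was at least 1.70-fold higher at 24 h. The most intense of the beta-actin probes (Actb) rose by 1.01, and the other probes of the gene differed by 1.48, -0.03, -0.11 and 1.46.

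Erythroid transcription factors and their cofactors moved both ways. Beside 21.2% rises and 34.6% falls over all genes, they had 8 (44.4%) and 4 (22.2%) of 18 tested, with a median of 0.42. This changed to 4 and 4 with a median of 0.04 after median centring, 4 and 4 with 0.11 with the share of detected probes as a covariate, and 10 and 1 with 0.18 on the authors' values. Zfpm1, the GATA1 partner FOG1, rose by 1.32 ± 0.23 (SE, n = 5 and 5; limma adjusted p = 0.000413) and Nfe2, a factor of globin genes, by 1.10 ± 0.20 (SE, n = 5 and 5; limma adjusted p = 0.000428). Xpo7, a nuclear exporter abundant in red cell precursors, rose by 1.26. Ldb1, which bridges GATA1 complexes, fell by 1.31, from 7.55 to 8.90 at 12 h to 6.59 to 7.64 at 24 h, a range that overlapped through array 1 at 12 h. Of 12 tested erythroid precursor markers 7 rose and 1 fell (10 and 1 with the array number as a block).

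Enzymes that protect against oxidation rose as a group. Of 22 tested 15 (68.2%) rose and 0 fell in limma, against 21.2% and 34.6% of all genes, with a median of 1.14. The other 7 did not pass, and at an unadjusted p below 0.05 in limma the number that was lower was 0. With the share of detected probes as a covariate 13 rose and 3 fell, with a median of 0.68, and with the array number as a block 16 rose and 1 fell. Txnrd2, the mitochondrial thioredoxin reductase, rose by 2.73 ± 0.19 (SE, n = 5 and 5; limma adjusted p = 1.24e-07). Glrx, a glutaredoxin, rose by 2.16 ± 0.16 (SE, n = 5 and 5; limma adjusted p = 1.62e-07). Gclm and Gss act in the synthesis of glutathione. Gclm read 7.71, 7.08, 6.59, 6.13 and 6.57 on 12 h arrays 1 to 5 and 8.74, 8.49, 8.60, 7.98 and 8.55 on 24 h arrays 1 to 5. The groups did not overlap, by a narrow gap between array 1 at 12 h and array 4 at 24 h. Gclm, the modifier subunit of the first enzyme, rose by 1.66 ± 0.25 (SE, n = 5 and 5; limma adjusted p = 0.000139). Gss, below background on all 12 h arrays, was at least 2.83-fold higher at 24 h (adjusted p = 5.27e-06 in limma). Nqo1, a quinone reductase detected on 1 of 5 arrays at 12 h and 5 of 5 at 24 h, rose by 1.73 ± 0.18 (SE, n = 5 and 5; limma adjusted p = 4e-06).

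Most glycolytic enzymes fell, while Taldo1 and Bpgm of adjoining pathways rose. Of 13 tested genes 3 (23.1%) rose and 9 (69.2%) fell, against 21.2% and 34.6% of all genes, with a median of -0.67. On the authors' values, however, 3 rose and 5 fell, with a median of -0.08 (0.03 over all genes). Pfkl, a phosphofructokinase, fell from 6.93 ± 0.24 to 5.31 ± 0.27 (SD, n = 5 each; difference -1.61 ± 0.17 (SE, n = 5 and 5; limma adjusted p = 4.35e-06)). Ldha, a lactate dehydrogenase subunit, and Tpi1, triose phosphate isomerase, differed by -1.45 and -1.31, both past the test. Taldo1, the transaldolase of the pentose phosphate pathway, rose by 1.997 ± 0.10 (SE, n = 5 and 5; limma adjusted p = 8.87e-09). Bpgm read 4.67, 4.56, 4.73, 4.58 and 4.68 on 12 h arrays 1 to 5 and 7.26, 6.66, 6.94, 6.505 and 7.24 on 24 h arrays 1 to 5. Only 1 of the 12 h arrays was above background, and all 24 h arrays were. Bpgm, which makes the 2,3-bisphosphoglycerate that lowers the oxygen affinity of hemoglobin, rose by 2.28 ± 0.16 (SE, n = 5 and 5; limma adjusted p = 1.27e-07).

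Proteasome genes leaned upward, with 17 up (48.6%) and 6 down (17.1%) of 35 tested and a median of 0.31. Over all genes the shares were 21.2% and 34.6%. After median centring 9 rose and 3 fell and the median was -0.13 (-0.53 over all genes), and on the authors' values 23 rose and 0 fell (1 lower at an unadjusted p below 0.05 in limma). Psmd4 read 9.27, 9.43, 9.63, 9.46 and 9.07 on 12 h arrays 1 to 5 and 11.39, 11.25, 11.39, 11.15 and 11.23 on 24 h arrays 1 to 5. The groups were far apart and the arrays of each close together. Psmd4, the subunit that binds ubiquitin chains, rose by 1.91 ± 0.12 (SE, n = 5 and 5; limma adjusted p = 7.14e-08). Psme4, the PA200 activator, rose by 1.63 ± 0.19 (SE, n = 5 and 5; limma adjusted p = 1.31e-05), and Psmd8 and Psma2 by 1.60 and 1.26. Psma3, a subunit of the core, fell by 0.53, and on the authors' values it rose by 0.39.

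Autophagy genes had 6 rises (27.3%) and 6 falls (27.3%) of 22 tested with a median of -0.09 (11 and 2 on the authors' values). These shares were near the 21.2% and 34.6% of all genes. Among those that rose were the cargo receptor Sqstm1 (1.31 ± 0.15 (SE, n = 5 and 5; limma adjusted p = 1.14e-05)), the phosphoinositide-binding Wipi1 (1.25 ± 0.16 (SE, n = 5 and 5; limma adjusted p = 2.38e-05)) and the lipid transfer protein Atg2a (0.92). Map1lc3b read 5.62, 5.19, 5.45, 5.30 and 5.59 on 12 h arrays 1 to 5 and 6.27, 6.28, 6.20, 5.86 and 6.35 on 24 h arrays 1 to 5. Each 24 h array was above each 12 h array. Map1lc3b, which coats the autophagosome, rose by 0.76 ± 0.14 (SE, n = 5 and 5; limma adjusted p = 0.000672). Vmp1, a membrane protein of early autophagosomes, fell by 0.73. Gabarapl2 differed by -0.27 ± 0.24 (SE, n = 5 and 5; limma adjusted p = 0.343) on its brighter probe and by 1.51 on its other probe, so its direction depends on the probe. Ulk1, the kinase that starts autophagy, differed by 0.39 ± 0.24 (SE, n = 5 and 5; limma adjusted p = 0.174), and without array 1 at 12 h it passed at 0.62 with an adjusted p of 0.00692 in limma, as it did with the array number as a block (adjusted p = 0.0198 in limma).

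Among 15 tested genes of mitophagy and mitochondrial dynamics 4 (26.7%) rose and 6 (40.0%) fell, near the 21.2% and 34.6% of all genes. On the authors' values 8 rose and 1 fell. Pink1 read 8.78, 8.28, 8.12, 7.87 and 8.88 on 12 h arrays 1 to 5 and 10.22, 10.47, 10.37, 10.20 and 10.73 on 24 h arrays 1 to 5. No 24 h array came within 1 log2 unit of the 12 h arrays. Pink1, the kinase that marks damaged mitochondria, rose by 2.01 ± 0.19 (SE, n = 5 and 5; limma adjusted p = 2.36e-06), and its other probe differed by 2.29. Ppif, the cyclophilin of the permeability transition, rose by 1.28. Bnip3l, the receptor that reticulocytes need to clear mitochondria, stood at 14.21 ± 0.13 and 14.26 ± 0.04 (SD, n = 5 each) and did not pass (limma adjusted p = 0.517). Slc25a5, an adenine nucleotide carrier, fell by 0.92 and on the authors' values was 0.11 higher with no call. Lysosome genes had 5 rises (18.5%) and 11 falls (40.7%) among 27 tested, near the 21.2% and 34.6% of all genes, and 13 and 0 on the authors' values (0 lower at an unadjusted p below 0.05 in limma). At the top stood 2 subunits of the proton pump, Atp6v1e1 at 2.56 ± 0.18 (SE, n = 5 and 5; limma adjusted p = 1.12e-07) and Atp6v0d1 at 1.70 ± 0.18 (SE, n = 5 and 5; limma adjusted p = 5.5e-06), and the lysosomal protein Psap stood at -1.63 ± 0.22 (SE, n = 5 and 5; limma adjusted p = 4.54e-05).

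Among respiratory chain genes, those of complex I had 13 rises (43.3%) and 4 falls (13.3%) of 30 tested. Those of complexes II to V had 13 rises (37.1%) and 9 falls (25.7%) of 35, against 21.2% and 34.6% of all genes. On the authors' values these were 19 and 1 for complex I and 22 and 1 for complexes II to V, and after median centring 2 and 3, and 6 and 2. Their medians were 0.24 and 0.11, but -0.19 and -0.07 after median centring, where the median of all genes was -0.53. Ndufs4, an accessory subunit of complex I, rose by 0.99 ± 0.16 (SE, n = 5 and 5; limma adjusted p = 0.00026), and Ndufc2, another, fell by 0.9999. Atp5b, the catalytic beta subunit of the ATP synthase, rose by 1.55 ± 0.12 (SE, n = 5 and 5; limma adjusted p = 2.2e-07). Cox7a2l, which joins complexes into supercomplexes, fell by 1.17, and on the authors' values it was 0.12 higher with no call. Genes of the TCA cycle and mitochondrial import had 6 rises (31.6%) and 5 falls (26.3%) of 19, not far from the 21.2% and 34.6% of all genes. Their median was -0.14, and 0.01 on the authors' values. After median centring 2 rose and 3 fell.

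Genes of the integrated stress response had 6 rises (40.0%) and 2 falls (13.3%) of 15 tested, against 21.2% and 34.6% of all genes. Their median was 0.42, and on the authors' values 11 rose and 1 fell with a median of 0.61. Asns read 7.09, 6.38, 6.15, 5.59 and 6.28 on 12 h arrays 1 to 5 and 8.98, 9.23, 9.44, 9.22 and 9.21 on 24 h arrays 1 to 5. The 24 h arrays were tight and all above the 12 h arrays, of which array 1 was the highest. Asns, the asparagine synthetase that ATF4 induces, rose by 2.92 ± 0.22 (SE, n = 5 and 5; limma adjusted p = 2.71e-07), and its other probes differed by 0.80 and 2.69. Eif2ak1, the heme-regulated kinase of eIF2 that limits globin synthesis when heme is short, rose by 1.88 ± 0.25 (SE, n = 5 and 5; limma adjusted p = 3.46e-05). Atf4 and Atf5, the factors translated under this response, rose by 1.03 and 1.98. Shmt2, a mitochondrial enzyme of serine breakdown that was below background on all 12 h arrays, was at least 2.31-fold higher. Eif2ak3, the kinase of the endoplasmic reticulum, fell by 0.89. Chaperones, Dnajb2 included, had 4 rises (21.1%) and 9 falls (47.4%) of 19, beside 21.2% and 34.6% of all genes. On the authors' values 5 rose and 3 fell. Hspa8 read 8.82, 9.40, 9.94, 10.03 and 9.88 on 12 h arrays 1 to 5 and 8.04, 8.09, 8.60, 8.69 and 8.37 on 24 h arrays 1 to 5. The groups did not overlap. Hspa8, the constitutive Hsp70, fell by 1.25 ± 0.23 (SE, n = 5 and 5; limma adjusted p = 4.71e-04), but on the authors' values it was 0.09 higher with no call. Dnajb6 and Hsph1 rose by 1.44 and 1.11, and the chaperonin subunit Cct4 fell by 1.13. The other probe of Dnajb6 differed by 0.66.

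Interferon-induced genes had 11 rises (44.0%) and 2 falls (8.0%) of 25 tested, against 21.2% and 34.6% of all genes, with a median of 0.35. After median centring 5 rose and 1 fell, with a median of -0.13, on the authors' values 18 rose and 0 fell (1 lower at an unadjusted p below 0.05 in limma), and with the array number as a block 15 rose and 6 fell. Rsad2 read 12.51, 12.003, 12.08, 11.59 and 12.51 on 12 h arrays 1 to 5 and 14.06, 13.93, 14.06, 13.59 and 14.13 on 24 h arrays 1 to 5. The 24 h arrays exceeded every 12 h array by more than 1 log2 unit. Rsad2, the antiviral enzyme viperin, rose by 1.81 ± 0.16 (SE, n = 5 and 5; limma adjusted p = 1.13e-06). Ifi27 rose by 2.91 ± 0.20 (SE, n = 5 and 5; limma adjusted p = 1.12e-07), and its other probe by 2.94. Oasl2, a protein of the oligoadenylate synthetase family, rose by 2.29 ± 0.18 (SE, n = 5 and 5; limma adjusted p = 3.57e-07), and the guanylate-binding protein Gbp2 by 1.05.

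Cytosolic ribosomal proteins fell under the normalization used here: of 54 tested 2 (3.70%) rose and 45 (83.3%) fell, against 21.2% and 34.6% of all genes. The median was -0.82 (-0.18 over all genes). On the authors' processed values, however, the median was 0.34 (0.03 over all genes). There 4 rose and 0 fell (0 lower at an unadjusted p below 0.05 in limma). After median centring 1 rose and 30 fell. Rpl12 read 11.59, 11.81, 11.83, 11.85 and 11.71 on 12 h arrays 1 to 5 and 10.20, 10.25, 10.49, 10.38 and 10.24 on 24 h arrays 1 to 5. The groups were separated by more than 1 log2 unit, array 1 included. Rpl12, a protein of the large subunit, fell by 1.44 ± 0.10 (SE, n = 5 and 5; limma adjusted p = 1.12e-07). Rps12, Rps20, Rpl28 and Rpl37a differed by -1.15, -1.10, -1.07 and -1.06, and on the authors' values all of these, Rpl12 included, were between 0.02 and 0.34 higher with no call. The exceptions that rose were Rpl7a at 1.24 ± 0.19 (SE, n = 5 and 5; limma adjusted p = 0.000113) and Rpl27a at 0.71 ± 0.17 (SE, n = 5 and 5; limma adjusted p = 0.00282). Many processed pseudogenes resemble ribosomal protein genes and could share the signal of a probe.

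Among other genes of RNA and protein synthesis, translation factors had 9 rises (26.5%) and 14 falls (41.2%) of 34, near the 21.2% and 34.6% of all genes, and 12 and 3 on the authors' values. Genes of RNA binding and decay had 4 rises (9.76%) and 23 falls (56.1%) of 41, but 12 and 6 on the authors' values. Mitochondrial ribosomal proteins had 4 rises (7.84%) and 22 falls (43.1%) of 51, against 9 and 10 on the authors' values and 7 and 25 with the array number as a block. Eif3c, a subunit of an initiation factor, rose by 1.57 ± 0.14 (SE, n = 5 and 5; limma adjusted p = 1.08e-06) and Eif5a, which carries hypusine, by 1.42 ± 0.17 (SE, n = 5 and 5; limma adjusted p = 2.03e-05). Eif5 read 14.03, 14.30, 14.13, 14.30 and 14.23 on 12 h arrays 1 to 5 and 13.53, 13.73, 13.53, 13.46 and 13.59 on 24 h arrays 1 to 5. The groups did not overlap. Eif5, an initiation factor that acts on eIF2, fell by 0.63 ± 0.07 (SE, n = 5 and 5; limma adjusted p = 7.88e-06), while its other probes differed by -0.01 and 0.76 and the authors' values by 0.59, so its direction depends on the probe and the scaling. Srp14, a protein of the signal recognition particle, fell by 0.41 ± 0.12 (SE, n = 5 and 5; limma adjusted p = 0.00983), and on the authors' values it was 0.97 higher with no call.

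The largest falls included genes of macrophages, granulocytes and B cells beside genes of chromatin, RNA decay and splicing. As a list, neutrophil markers had 8 rises (44.4%) and 3 falls (16.7%) of 18 tested. Monocyte and macrophage markers had 2 (18.2%) and 4 (36.4%) of 11, near the 21.2% and 34.6% of all genes. Gpnmb read 7.88, 6.40, 7.35, 6.46 and 9.12 on 12 h arrays 1 to 5 and 4.75, 4.33, 4.46, 4.36 and 4.38 on 24 h arrays 1 to 5. The 12 h arrays spread over more than 2 log2 units and no 24 h array was above background. The fall of Gpnmb, a glycoprotein of macrophages, is given as at least 4.65-fold (adjusted p = 4.21e-05 in limma). Cnot4 read 10.45, 10.31, 10.17, 10.06 and 10.45 on 12 h arrays 1 to 5 and 7.83, 7.70, 7.49, 7.84 and 7.59 on 24 h arrays 1 to 5. The arrays of each group were close together. Cnot4, a ubiquitin ligase tied to the CCR4-NOT deadenylase, fell by 2.60 ± 0.13 (SE, n = 5 and 5; limma adjusted p = 8.64e-09). Ezh2, the methyltransferase of histone H3, fell by 2.52 ± 0.15 (SE, n = 5 and 5; limma adjusted p = 4.72e-08), and Luc7l3, a splicing factor, differed by -2.06. Apoe, the lipid carrier that macrophages secrete, fell by 2.55 ± 0.23 and was above background on 1 of the 24 h arrays. Csf3r read 8.03, 8.53, 9.29, 10.31 and 8.96 on 12 h arrays 1 to 5 and 6.29, 6.46, 6.98, 7.69 and 6.35 on 24 h arrays 1 to 5. Array 4 was the highest of each group, and array 1 at 12 h lay only just above array 4 at 24 h. Csf3r, the receptor of granulocyte colony-stimulating factor, fell by 2.27 ± 0.37 (SE, n = 5 and 5; limma adjusted p = 2.19e-04), and its other probes differed by -0.64, -1.10 and -2.20. Mzb1, Fcrla and Gimap1, of B cells and other lymphocytes, fell with log2 differences of -2.55, -1.97 and -2.05. Lpxn (leupaxin, an adaptor of leukocytes), Clec2d, a lectin ligand of natural killer cell receptors, and the cytokine Mif differed by -1.96, -2.15 and -1.94, all past the test. Adssl1, of AMP synthesis, and Cerk, the ceramide kinase, differed by -2.29 and -2.18, both past the test. Slc16a6, of the monocarboxylate transporter family, fell by 2.22 on its brightest probe, but its other probes differed by -0.82 and 0.17, and the median over its probes did not pass (-0.11, adjusted p = 0.52 in limma).

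White blood cell genes were present in these preparations, and B cell genes fell as a group under the normalization used here. Of 16 B cell markers tested 12 (75.0%) fell and 1 (6.25%) rose, with a median of -1.39. Of 17 T cell and cytotoxic markers 10 (58.8%) fell and 1 (5.88%) rose, with a median of -0.51. Over all genes 34.6% fell and 21.2% rose, with a median of -0.18. On the authors' values 5 B cell markers fell and 1 rose, with a median of -0.11 (0.03 over all genes), and 4 T cell markers fell and 1 rose, with a median of -0.04. With the share of detected probes as a covariate the medians were -0.69 and -0.33. In blood RNA, fewer cells of a type and less RNA per cell cannot be told apart. Cd79b read 8.502, 9.61, 9.91, 9.89 and 9.59 on 12 h arrays 1 to 5 and 6.99, 7.74, 8.09, 8.13 and 7.56 on 24 h arrays 1 to 5. Array 1 was the lowest of both groups, and its 12 h value was still above all 24 h arrays. Cd79b, a signalling chain of the B cell receptor, fell by 1.80 ± 0.27 (SE, n = 5 and 5; limma adjusted p = 1.32e-04), and its partner Cd79a differed by -1.37. Cd52 and the class II chain H2-Ob fell with differences of -1.94 and -1.51, and Fcer2a (CD23) rose by 0.73. The receptor of interleukin 7 (Il7r), Klrd1 of natural killer cells, Cd8b1 and Cd3g of T cells fell with differences of -1.53, -1.48, -1.36 and -0.86. The other probes of Il7r and Cd8b1 differed by only -0.33 and -0.48. Cd4, Cd8a and the B cell marker Ms4a1 were near or below background: Cd4 and Cd8a were detected on no array and Ms4a1 on 2 at 12 h and 0 at 24 h.

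Summed B cell signal ran from 3836 to 11708 intensity units at 12 h and from 1469 to 3881 at 24 h, and the T cell sum from 1370 to 2289 and from 727 to 1204. The B cell sums overlapped only through array 1 at 12 h, which was also the 12 h array with the fewest probes detected. Neutrophil markers had 8 rises (44.4%) and 3 falls (16.7%) of 18, against 21.2% and 34.6% of all genes, with a median of 0.30. After median centring 2 rose and 2 fell, with a median of -0.08, and with the array number as a block 9 rose and 6 fell. Their sums were 3119 to 12437 at 12 h and 2337 to 10379 at 24 h. Cxcr2, a chemokine receptor, fell by 1.72 ± 0.30, and Ltf, the lactoferrin of granules, rose by 1.33 ± 0.27 (SE, n = 5 and 5; limma adjusted p = 0.00116). Monocyte and macrophage markers had 2 rises (18.2%) and 4 falls (36.4%) of 11, near the shares of all genes. Their sums were 1890 to 5077 and 1274 to 2869. Cd14 rose by 1.30 and Fcer1g fell by 0.81, but on the authors' values Fcer1g was 0.41 higher with no call. Platelet markers had 10 rises (62.5%) and 2 falls (12.5%) of 16 (6 and 2 with the share of detected probes as a covariate). Their sum, in contrast, was 10929 to 17399 at 12 h and 8584 to 12679 at 24 h. Gp5, a chain of the von Willebrand factor receptor, rose by 2.32 ± 0.15 (SE, n = 5 and 5; limma adjusted p = 8.58e-08), Plek (pleckstrin) by 1.27, and the bright Tmsb4x fell by 0.78 (0.60 higher on the authors' values with no call). The platelet marker Itgb3 was detected on no array. The part of these cells and of the share of detected probes in the changes above was not tested.

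**Figure D3:**
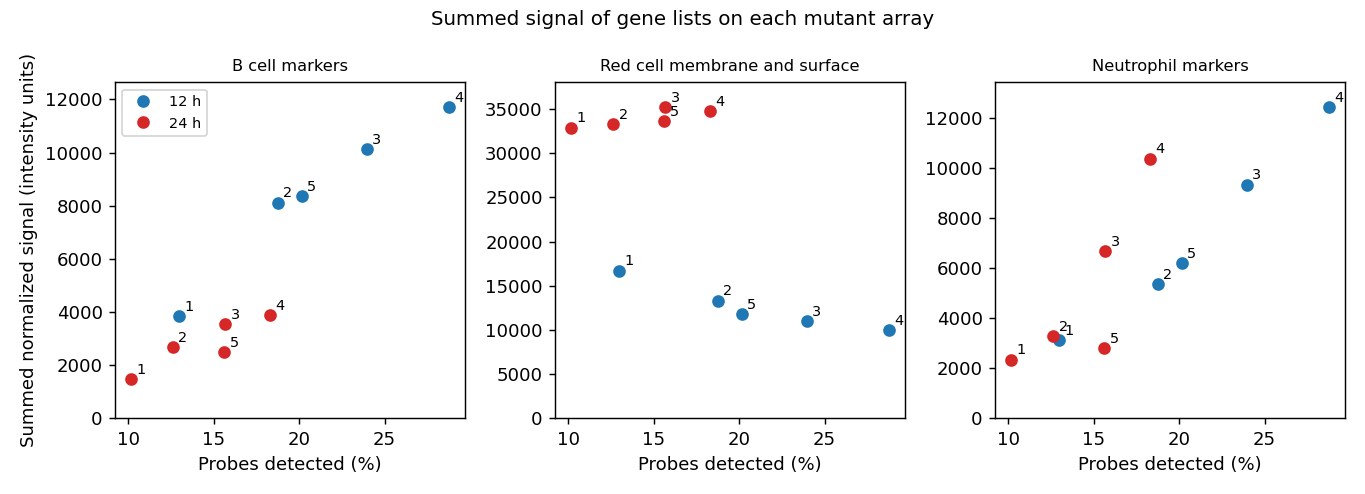
Summed normalized signal (vertical axis, intensity units) of B cell markers, red cell membrane genes and neutrophil markers against the share of probes detected (horizontal axis, %), 1 point per mutant array, labelled with the array number. Membrane sums of 24 h (32922 to 35221, of which the bright Slc4a1 is the larger part) lie above those of 12 h at any share detected, while B cell and neutrophil sums are highest on 12 h array 4, which had the largest share detected.

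Of 18 tested genes of apoptosis and cell stress 0 rose and 8 (44.4%) fell in limma (0 higher at an unadjusted p below 0.05). Of all genes 21.2% rose and 34.6% fell. There were 3 rises and 4 falls on the authors' values and 1 and 12 with the array number as a block. Mcl1, a protector from cell death, fell by 1.41 ± 0.27 and Bcl2l11, the killer Bim, differed by -1.12 ± 0.17 (SE, n = 5 and 5; limma adjusted p = 7.00e-04 and 1.32e-04). Vesicle and exosome genes, which serve the shedding of membrane proteins, had 9 rises and 5 falls of 27 with a median of 0.12 (2 and 3 with -0.35 after median centring, 17 and 0 on the authors' values with 1 lower at an unadjusted p below 0.05 in limma), and cell cycle genes 3 and 4 of 12.

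**Figure D4:**
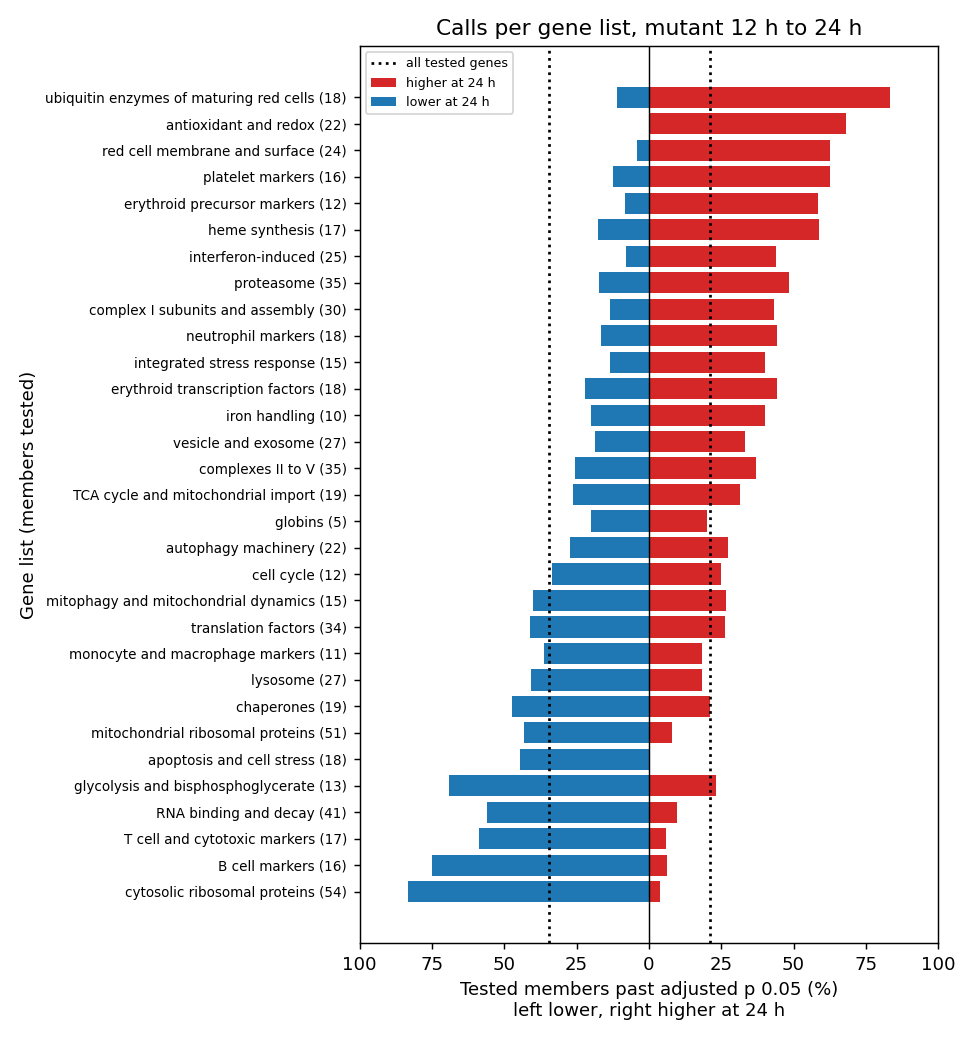
Share of tested members of each of 31 gene lists that passed an adjusted p of 0.05 in limma, higher at 24 h to the right and lower to the left, in percent; the number tested is in brackets and dotted lines mark the shares over all tested genes, 21.2% and 34.6%. Ubiquitin, antioxidant and membrane lists stand at the top and ribosomal proteins at the bottom, the last with 4 rises and 0 falls on the authors' processed values.

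The change in mutant cells was then set against that in wild-type cells of the same times, with all 16 arrays normalized together. Of 4488 genes 565 (12.6%) differed in their change at an adjusted p of 0.05 in limma, 338 with a higher and 227 with a lower change in mutant. This count moved strongly: it was 1594 with the array number as a block, 82 after median centring, 1184 without mutant 12 h array 1 and 274 without wild-type 12 h array 2, and on the authors' values 560 were higher and 24 lower.

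In Ube2o, Ncoa4 and Aldh1a1 the mutant began far below the wild type and was nearer to it at 24 h. Ube2o went from 10.53 to 13.23 in mutant, against 14.31 ± 0.52 and 14.20 ± 0.04 (SD, n = 3 each) in wild type, and the change differed by 2.81 ± 0.24 (SE, adjusted p in limma at most 7.49e-04 over all alternatives) and by 3.27 on the authors' values. The wild-type levels lie among the bright probes whose values follow the ranks, so small wild-type changes there could not be measured. Ncoa4 went from 5.69 to 8.01 in mutant, while wild type stood at 10.78 ± 0.22 and 10.61 ± 0.28, and the changes differed by 2.497 ± 0.39. Aldh1a1 went from 4.71 to 7.12 in mutant, where it was below background at 12 h, against 9.72 ± 0.18 and 9.77 ± 0.19 in wild type, so its change in mutant has only a lower bound. In these 3 genes every mutant array of either time was below every wild-type array. Aldh1a1, Mgst3 and Fbxo9 were chosen for their large change in mutant, so their differences from wild type are given with no test. Ube2o, Ncoa4, Bpgm and Srp14 were chosen with earlier results of these data known, so their differences are not an independent test of the genotypes. The change in Mgst3 was 4.25 in mutant and 1.54 in wild type, and that in Fbxo9 was 3.29 and 3.15. Bpgm went from 4.72 to 6.66 in mutant and was not above background on any wild-type array, so no wild-type change could be measured. Srp14 went the other way under this normalization: mutant fell from 11.38 to 10.95, and wild type, below background at 12 h, stood at 5.59 ± 0.19 and then 7.58 ± 0.14. The changes differed by -2.42 here, but by -0.28 on the authors' values with an adjusted p of 0.83 in limma. On those values mutant Srp14 was higher at 24 h with no call. The wild-type groups hold 3 arrays each, which limits the precision of these differences.

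**Figure D5:**
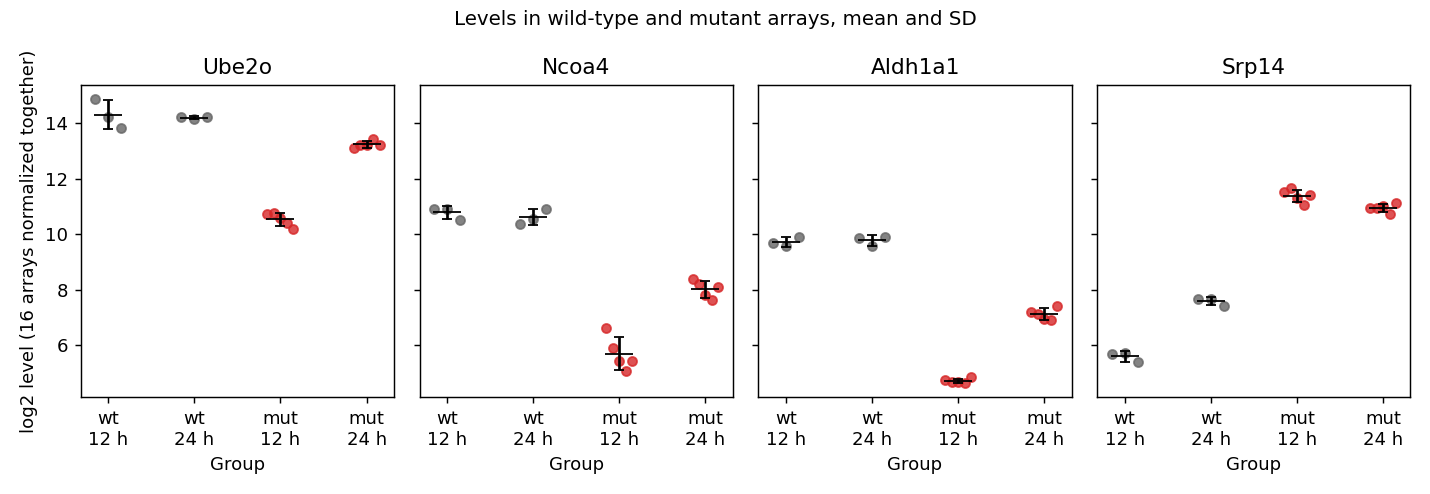
Levels (vertical axis, log2, 16 arrays normalized together) of 4 genes in wild-type and mutant arrays at 12 and 24 h, points for arrays and bars for mean and SD (n = 3 wild type, n = 5 mutant). Mutant arrays of Ube2o, Ncoa4 and Aldh1a1 lie below the wild-type arrays at both times and are higher at 24 h, and in Srp14 the mutant arrays start at 11.38 and end at 10.95, above the wild-type arrays. On the authors' processed values mutant Srp14 was higher at 24 h with no call.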

How the data were processed

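Total RNA of reticulocyte-rich blood was hybridized to 24 Illumina mouse bead arrays. The authors deposited a signal intensity per probe and array, with no normalization or background subtraction per the file headers, and a detection p-value from the deposited table in steps of 1/798. Their processed values are linear-scale intensities that the authors deposited separately, with medians of 99.8 to 108 on these arrays. Each array's values follow its raw intensities along a line, with slopes of 0.25 to 1.39 at 12 h and 0.73 to 2.34 at 24 h. The slope was higher at 24 h for every array number. How far directions on the authors' values follow these slopes was not tested. The sources used here name no method, so scale and centring rest on the fit of these lines.

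Intensities of the 10 arrays were corrected with the normexp model, given an offset of 16, quantile-normalized and log2-transformed (neqc, limma 3.58.1, R 4.3.3). Probes detected (p below 0.01) on at least 3 arrays numbered 5783, 5415 of them named, and the brightest probe of each gene gave 4433 genes. Of 23978 named probes 23962 matched the reference gene table. The groups were compared with lmFit and eBayes with an intensity trend, with p-values adjusted by Benjamini and Hochberg and a threshold of 0.05; differences are log2 ± SE. Genes not above background on any array of a group have a lower bound: the bright group's mean against the higher of the dim probe and the lowest detected signal. Beads per probe had medians of 38 to 41, and the number of arrays limits the precision. Alternatives are under the closing section; figures used matplotlib 3.10.9 in Python 3.11.15.

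Named genes are the 15 largest rises and falls, up to 5 members with the smallest p per list and 17 fixed genes; Cul4a, Alas1, Psma3, Rpl7a, Rpl27a, Atf5, Eif2ak3, Fcer2a and Vmp1 were chosen after their values were seen. Members, lists and fixed genes were chosen with earlier results of these data known. Residuals of mutant arrays with the same number correlated at 0.16 to 0.67 between the times, but arrays 3 and 5 correlated more with array 4. The main fit ignores the numbers, and an alternative fit takes them as a block. Tests were tried on simulated data first.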

Additional observations from a re-analysis of the deposited data

Results flagged for a closer look

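Each of 264 groups of 5 arrays (131 genes and the share of detected probes, at each time) was checked for 1 array far from the rest, and 22 stood out, where chance picks about 1 in 20. Of these 8 were array 1 at 12 h and 7 were array 1 at 24 h. Array 1 at 12 h was high in Snrnp25 (7.68), Pex19 (5.81) and Ube2e3 (6.38) and low in Clec2d (7.25), Fcrla (7.79), Lpxn (6.85), Cd79b (8.50) and Rpl27a (4.77). Array 1 at 24 h was high in Pfkl (5.78) and low in Fcrla (6.10), Mif (7.91), Fth1 (14.80), Eif2ak3 (4.46), Cd79a (5.55) and Il7r (5.49). Array 2 was low at 12 h in Bnip3l (13.99) and Atp6v1e1 (7.21) and at 24 h in Vmp1 (5.38). Array 4 was high at 12 h in Taldo1 (9.99) and low at 24 h in Dnajb2 (10.90) and Eif2ak1 (8.48), and array 5 at 24 h was high in Plek (7.53). These are log2 levels.

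The interaction term in limma was read only for the 15 largest rises, the 15 largest falls and the fixed genes. For the other named genes a difference between genotypes was not looked at. Among the genes read, the change in mutant differed from that in wild type in 22, at an adjusted p of 0.05. These were 11 of the 15 rises, 3 of the 15 falls and, for the rest, fixed genes. Over all 4488 genes 565 (12.6%) differed. The mutant change exceeded the wild-type change in Ube2o (2.81), Mgst3 (2.71), Snx15 (2.56), Ncoa4 (2.497), Dnajb2 (2.44), Aldh1a1 (2.35), Asns (1.95), Pex19 (1.89), Txnrd2 (1.85), Fam214b (1.82), Bpgm (1.74), Pnp (1.498), Ifi27 (1.40), Ube2e3 (1.28), Urod (1.26) and Sqstm1 (0.89), in log2 units. It was below the wild-type change in Srp14 (-2.42), Mzb1 (-1.44), Eif5 (-1.14), Apoe (-1.10), Luc7l3 (-0.93) and Alas2 (-0.29). On the authors' values none of these lower genes passed in limma. There Eif5 (0.08), Luc7l3 (0.02) and Alas2 (0.16) turned. Of all the genes listed, only Ube2o, Mgst3, Snx15, Ncoa4, Dnajb2, Aldh1a1, Fam214b and Bpgm passed under every alternative. Eif5, Alas2 and wild-type Ube2o are among the bright probes whose normalized levels follow the ranks. Aldh1a1 in mutant at 12 h, Pnp and Srp14 in wild type at 12 h, and Bpgm and Apoe in wild type at both times were above background on no array, so their differences rest on background levels and not on 2 measured changes. Genes among the 15 largest rises and falls were chosen for their change in mutant, which favours a larger change there than in wild type. For these genes passing is therefore not a test of a difference between genotypes. They are Mgst3, Snx15, Dnajb2, Aldh1a1, Asns, Pex19, Txnrd2, Fam214b, Pnp, Ifi27, Urod, Mzb1, Apoe and Luc7l3. Ube2o, Ncoa4, Bpgm, Ube2e3, Sqstm1, Srp14, Eif5 and Alas2 are fixed genes, chosen with earlier results of these data known. Passing is not an independent test for them.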

How the results depend on the processing

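The count of 2471 genes changed in mutant stayed within 1.5 times under every alternative except detection on all 10 arrays, which tested fewer genes and called 1034. Without single arrays it ran from 2082 to 2913. The genes behind the count were less stable. Of the 2471, 1475 were called in the same direction on the authors' values and 1490 after median centring. With the share of detected probes as a covariate 1622 were. With the replicate block the count was 3093, and among the 131 named genes the block changed no call other than those of Tfrc and Ulk1. The difference in the share of detected probes was -8.01 points at a detection p below 0.05 (exact permutation p = 0.0476) and -8.44 to -4.49 without single arrays. The count of genes that changed differently in the genotypes (565) was the least stable: 82 after median centring, 2025 with array weights, 1594 with the replicate block, 853 without the filter on detection, and 274 to 1184 without single arrays.

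On the authors' processed values 17 named genes turned, to Ube2l6 0.49, Psma3 0.39, Rpl28 0.34, Rps20 0.28, Rpl37a 0.27, Rps12 0.15, Rpl12 0.020, Slc25a5 0.11, Cox7a2l 0.12, Tmsb4x 0.60, Fcer1g 0.41, Hspa8 0.088, Eif5 0.59, Srp14 0.97, Gabarapl2 0.12, Hba-a1 1.19 and Alas2 1.19. With the median over a gene's probes Gabarapl2 became 0.62 and Eif5 0.67. Ulk1 became -0.063 after median centring and -0.16 with the share of detected probes as a covariate, with which Tfrc became -0.30. Bnip3l ran from -0.0061 to 0.075 without single arrays. After median centring 18 named genes no longer passed, and the cause was not tested. Probes near background limit what could be measured: 383 of the genes called were above it on no array at 24 h.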
